A study of Homo sapiens with 6 samples.

Results

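The axon guidance ligands and receptors examined here are 63 of the 60499 genes counted in cultures of H1, a human embryonic stem cell line in wide use. They were taken as protein-coding genes whose symbol begins with EPHA, EPHB, EFNA, EFNB, SEMA, PLXN (classes A to D), SLIT, ROBO, NTN or NRP, with at least 10 counts in at least 3 libraries. The symbols gave 67 genes. The 4 left out were EPHA5 (2 to 8 counts per library), NTN5 (3 to 9), ROBO4 (2 to 3) and the EFNA4-EFNA3 readthrough gene (0 in every library). The set held 8 EPHA, 5 EPHB, 5 EFNA, 3 EFNB, 20 SEMA, 9 PLXN, 2 NRP, 3 SLIT, 3 ROBO and 5 NTN genes, or 36 ligands and 27 receptors. All 63 had at least 10 counts in all 6 libraries, and all were tested.

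H1 cells were kept for 4 days in Nutristem medium, renewed every day, on plastic coated with laminin-521 alone (LN-521) or with laminin-521 and laminin-221 together (LN-521+LN-221). A laminin is a large protein of the basement membrane. Laminin-521 was present in both coatings, so the comparison is of a coating with laminin-221 against a coating without it. The amounts of each laminin were not taken into account here. Added laminin-221 therefore cannot be told apart from a different amount of laminin-521 or of total laminin. Each coating had 3 wells, and each well gave 1 library of total RNA. The wells shared 1 cell line, so p-values measure the spread between wells of that line. The labels give no knockout, transgene or drug.

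Axon guidance genes encode short-range and secreted cues and the receptors that read them at the cell surface. Ephrins are membrane-bound ligands of the Eph receptor tyrosine kinases, and signals pass into the ephrin-bearing cell as well as into the Eph-bearing cell. Semaphorins act through plexins, the secreted class 3 semaphorins mostly with a neuropilin as co-receptor. Slits bind Robo receptors, and netrins bind DCC, neogenin and UNC5 receptors. Outside the nervous system the same families act in cell sorting, tissue boundaries, blood vessel growth and cell migration.

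The 5 genes that differed between the coatings were EFNB1, EPHA4, EPHB2 and NRP2, which rose on LN-521+LN-221, and EFNB2, which fell. The 250 bases before the RefSeq start site of each are shown because they are the promoter-proximal DNA of these 5 genes (GRCh38.p14, each 5′ to 3′ on the gene's own strand). They lie at chrX:68828771-68829020 (+) for EFNB1, chr13:106535663-106535912 (-) for EFNB2, chr2:221574203-221574452 (-) for EPHA4, chr1:22710588-22710837 (+) for EPHB2 and chr2:205682251-205682500 (+) for NRP2. Capitals mark matches, on either strand, to the GC box GGGCGG or the RBPJ core TGGGAA.
EFNB1: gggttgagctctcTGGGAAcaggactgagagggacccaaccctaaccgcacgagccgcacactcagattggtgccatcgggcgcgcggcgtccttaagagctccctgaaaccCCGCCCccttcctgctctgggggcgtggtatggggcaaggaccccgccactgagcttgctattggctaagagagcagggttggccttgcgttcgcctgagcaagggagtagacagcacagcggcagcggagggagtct
EFNB2: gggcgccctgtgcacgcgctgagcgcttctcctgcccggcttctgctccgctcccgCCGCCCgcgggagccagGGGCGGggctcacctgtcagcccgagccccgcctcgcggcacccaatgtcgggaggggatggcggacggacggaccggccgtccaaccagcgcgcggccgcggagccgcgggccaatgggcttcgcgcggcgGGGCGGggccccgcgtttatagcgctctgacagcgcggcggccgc
EPHA4: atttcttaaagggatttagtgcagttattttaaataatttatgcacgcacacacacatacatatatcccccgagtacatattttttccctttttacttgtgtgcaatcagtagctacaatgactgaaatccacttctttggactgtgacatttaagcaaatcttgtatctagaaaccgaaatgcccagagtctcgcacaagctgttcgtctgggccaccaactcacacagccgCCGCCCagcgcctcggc
EPHB2: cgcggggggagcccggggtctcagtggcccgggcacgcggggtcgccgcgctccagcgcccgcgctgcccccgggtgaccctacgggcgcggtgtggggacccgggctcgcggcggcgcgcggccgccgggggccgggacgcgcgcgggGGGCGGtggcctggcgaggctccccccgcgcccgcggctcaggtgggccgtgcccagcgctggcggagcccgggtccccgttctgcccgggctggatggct
NRP2: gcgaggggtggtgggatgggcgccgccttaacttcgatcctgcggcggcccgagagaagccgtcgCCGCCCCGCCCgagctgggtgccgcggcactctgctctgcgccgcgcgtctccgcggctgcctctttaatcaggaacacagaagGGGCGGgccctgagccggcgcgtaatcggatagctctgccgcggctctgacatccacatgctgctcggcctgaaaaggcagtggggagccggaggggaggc

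EFNB2, EPHA4 and EPHB2 have windows with no annotated exon, while 24 bases of the EFNB1 window and 1 base of the NRP2 window lie in an exon of GENCODE release 29. The NRP2 window lies inside the annotated gene, past its first annotated start. GC content ran from 43.2% in EPHA4 to 84.8% in EPHB2, with 63.6% in EFNB1, 70.0% in NRP2 and 78.4% in EFNB2. EPHA4 stood below the median of 58.0% over 35114 such windows, and the other 4 stood above it. The CpG count was 9 in EPHA4, 15 in EFNB1, 29 in NRP2, 40 in EFNB2 and 42 in EPHB2, against a median of 11. Across the 54 members with a window, the median was 65.4% GC and 18 CpGs. A GC box was found in all 5 windows: 3 in EFNB2, 3 in NRP2 (of which 2 share a base) and 1 in each of the other 3. It was found in 72.2% of the member windows and 42.6% of all windows. TGGGAA was found in the EFNB1 window alone of the 5, in 20.4% of member windows and in 20.8% of all windows. The octamer ATGCAAAT (1.85% of member windows, 1.63% of all), the OTX core TAATCC (7.41% and 5.62%) and the TEAD core GGAATG (5.56% and 11.9%) had no match in the 5 windows. These motifs were picked after the values were known, and a match of letters is not a site of binding.

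Per library, 20606494 to 26836727 estimated counts were assigned to genes. The biological coefficient of variation was 7.03%. The 8 pluripotent stem cell markers summed to 7971.4 to 8055.9 CPM (counts scaled to library size) in the LN-521 wells and 8005.8 to 8171.0 in the LN-521+LN-221 wells. Of these, LIN28A rose on LN-521+LN-221 (log2 fold change 0.23), while POU5F1 (-0.36), NANOG (-0.73) and TDGF1 (-0.65) fell. The sums weigh LIN28A most (means of 2694.2 and 3170.6 CPM) and hide the fall of genes such as NANOG (106.8 and 64.5 CPM). Neural progenitor markers summed to 8.67 to 10.7 and 8.74 to 9.69 CPM, and the endoderm markers SOX17, FOXA2, GATA4 and GATA6 stayed under 10 counts. The 6 neuron markers summed to 103.1 to 109.8 CPM on LN-521 and 105.6 to 115.5 CPM on LN-521+LN-221, with STMN2 higher and DCX lower. Of the 5 endothelial markers (22 to 26.8 and 22.9 to 27.9 CPM), VWF rose and PECAM1, CDH5 and EMCN had under 10 counts. The remaining sums were 4.5 to 5.41 and 4.39 to 6.36 CPM for the 3 neural crest markers, 4.37 to 5.19 and 4.33 to 4.71 for the 5 mesoderm markers, 9.95 to 11.1 and 8.45 to 9.96 for the 5 fibroblast markers (LUM at 0) and 18.3 to 23.8 and 18.2 to 21.1 for the 4 trophoblast markers. Of these last 4 lists, 1 of 3, 1 of 5, 2 of 5 and 1 of 4 genes had enough counts to be tested, and none of those passed. The part of these markers in the results below was not tested. In RNA from a whole well, a change in the share of cells of a kind and a change in RNA per cell cannot be told apart.

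Of the 63 genes, 5 had an adjusted p under 0.05 in edgeR's quasi-likelihood test, or 7.94%, and 4 of them were higher on LN-521+LN-221 and 1 lower. Over all 17608 genes tested the share was 2.53%, with 1.4% higher and 1.14% lower. At an unadjusted p under 0.05 there were 13 of the 63 genes, 7 higher and 6 lower, against 2561 of all 17608 genes tested (14.5%). The CPM of the coatings did not overlap for 14 of the 63 (22.2%), close to the 19.9% of all genes. Log2 fold changes, given throughout for LN-521+LN-221 over LN-521 and with their standard errors (SE), ran from -0.57 to 0.81. Their median was -0.025 (-0.001 over all genes tested) and the median of their absolute values was 0.16 (0.11), with 28 above 0 and 35 below. Ligands passed in 2 of 36 cases (5.56%) and receptors in 3 of 27 (11.1%).

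**Figure D1:**
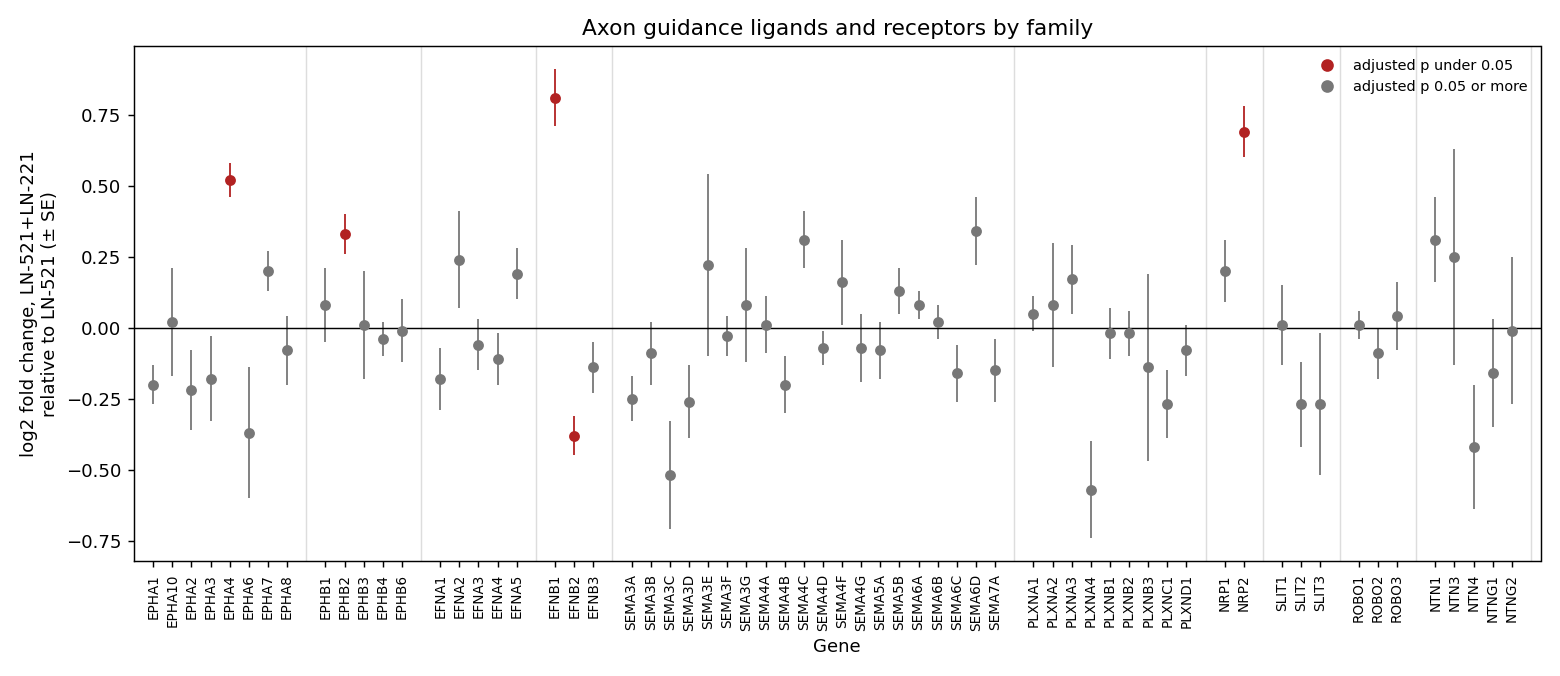
Log2 fold change of each of the 63 genes, LN-521+LN-221 over LN-521, with its standard error as a bar, grouped by family along the x axis. The 5 red points are the genes with an adjusted p under 0.05: EFNB1, EPHA4, EPHB2 and NRP2 above 0 and EFNB2 below, while PLXNA4, the lowest point at -0.57, did not pass.

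The B ephrins are transmembrane ligands that bind EphB receptors and EPHA4. EFNB1 rose and EFNB2 fell, and EFNB3 did not pass the test. EFNB1 (ENSG00000090776, chrX:68828997-68842147, + strand) measured 10.3, 11.4 and 10.2 CPM in the LN-521 wells and 16.2, 20.5 and 19.1 CPM in the LN-521+LN-221 wells. Every LN-521+LN-221 well lay above every LN-521 well. The mean went from 10.6 ± 0.646 to 18.6 ± 2.19 CPM (SD, n = 3 each), a 1.75-fold difference and a log2 fold change of 0.81 ± 0.10 (edgeR adjusted p = 0.000156), resting on 236 to 458 counts per library. This was the highest log2 fold change of the 63.

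EFNB2 (ENSG00000125266, chr13:106489731-106535662, - strand) encodes ephrin-B2, known as a mark of arterial as against venous endothelium and as the preferred ligand of EPHB4. Its wells measured 33.9, 32.3 and 34.7 CPM on LN-521 and 26.9, 26.3 and 24.5 CPM on LN-521+LN-221. The groups did not overlap. The mean went from 33.6 ± 1.25 to 25.9 ± 1.28 CPM (SD, n = 3 each), a ratio of 0.77 and a log2 fold change of -0.38 ± 0.07 (edgeR adjusted p = 0.00858), on 559 to 865 counts. The call was lost without LN-521 replicate 3 (adjusted p = 0.0766) or without LN-521+LN-221 replicate 2 (0.0586) or 3 (0.0828). The annotation places an antisense gene, AL138689.2, over EFNB2, and no value for it was used here.

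EFNB3 measured 17.6, 16.8 and 16.8 CPM on LN-521 and 15.4, 15.2 and 16 CPM on LN-521+LN-221, which gave a log2 fold change of -0.14 ± 0.09 (edgeR adjusted p = 0.515). On the length-corrected TPM scale, EFNB1 measured 2.84, 2.64 and 2.5 TPM on LN-521 and 4.38, 5.29 and 4.73 TPM on LN-521+LN-221. EFNB2 measured 6.87, 5.5 and 6.25 TPM and then 5.32, 4.96 and 4.44 TPM. In TPM, EFNB1 was therefore 0.413, 0.48 and 0.4 times EFNB2 in the LN-521 wells and 0.823, 1.07 and 1.07 times EFNB2 in the LN-521+LN-221 wells. On LN-521 the EFNB2 level exceeded the EFNB1 level in every well, and on LN-521+LN-221 the levels were near each other. The 3 B ephrins together gave 14.7, 12.2 and 13.0 TPM on LN-521 and 14.0, 14.3 and 13.2 TPM on LN-521+LN-221, and these sums overlapped.

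The A ephrins, which are held to the membrane by a lipid anchor and bind EphA receptors, gave no call in 5 genes (0 also at an unadjusted p under 0.05). EFNA3 was the most abundant at a mean of 11.5 TPM over the 6 wells, followed by EFNA4 at 10.5 TPM, and their wells overlapped. EFNA3 read 18.3, 21.7 and 21.3 CPM on LN-521 and 20.4, 18.7 and 19.6 CPM on LN-521+LN-221, which gave a log2 fold change of -0.06 ± 0.09 (edgeR adjusted p = 0.814) that became 0.02 on the TPM scale. EFNA2 had the largest log2 fold change of the family, 0.24 ± 0.17 (edgeR adjusted p = 0.572). Its wells lay at 2.7, 2.71 and 2.53 CPM on LN-521 and 3.42, 2.74 and 3.25 CPM on LN-521+LN-221. The LN-521+LN-221 wells were all higher, though the nearest wells of the coatings almost touched, on 61 to 77 counts. EFNA5 measured 0.19 ± 0.09 (0.377), EFNA1 -0.18 ± 0.11 (0.51) and EFNA4 -0.11 ± 0.09 (0.646), each as a log2 fold change with its SE and edgeR adjusted p.

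Of the EphA receptors, EPHA4 rose and the other 7 did not pass. EPHA4 (ENSG00000116106, chr2:221418027-221574202, - strand) is the Eph receptor known for binding A and B ephrins alike, and it stops corticospinal axons at the spinal midline. It measured 44.7, 42.7 and 42.1 CPM on LN-521 and 62.1, 62.2 and 61.5 CPM on LN-521+LN-221. The wells of each coating were close together and the groups were well apart. The mean went from 43.2 ± 1.39 to 62 ± 0.404 CPM (SD, n = 3 each), 1.43-fold, a log2 fold change of 0.52 ± 0.06 (edgeR adjusted p = 7.58e-05), on 1027 to 1456 counts. An antisense gene over EPHA4, AC079834.2, had 2 to 15 counts.

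EPHA1, the most abundant EphA receptor at 30.3 TPM, measured 97.2, 113.2 and 108.6 CPM on LN-521 and 87.9, 92.5 and 98 CPM on LN-521+LN-221. The groups overlapped by a single pair of wells, and the log2 fold change of -0.20 ± 0.07 did not pass (edgeR adjusted p = 0.151). It passed without LN-521 replicate 1 (-0.26, adjusted p = 0.00696) and in 1 of the 9 other fits on counts of all libraries. That fit was the GC correction with the replicate block (-0.15, adjusted p = 0.0471). ZYX, on the opposite strand over EPHA1, had 947 to 1543 counts and a log2 fold change of -0.28 (adjusted p = 0.0707). Whether the counting used the strand is not given in the sources used here, so reads of EPHA1 and ZYX may not be separable. EPHA7 did not overlap between coatings, at 29.6, 30.5 and 31.5 CPM and then 33.9, 35.8 and 35.6 CPM, and did not pass (0.20 ± 0.07, edgeR adjusted p = 0.173). The other 5 were low, from 1.14 TPM for EPHA10, which lacks kinase activity, to 2.33 TPM for EPHA8, and their log2 fold changes ran from -0.37 for EPHA6 to 0.02 for EPHA10.

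Among the EphB receptors EPHB2 rose. EPHB2 (ENSG00000133216, chr1:22710839-22921500, + strand) binds B ephrins and is known for keeping cell populations apart, for example along the intestinal crypt. Its wells measured 39.6, 43.8 and 39.2 CPM on LN-521 and 47, 54.4 and 53.2 CPM on LN-521+LN-221, with no overlap. The mean went from 40.8 ± 2.54 to 51.5 ± 3.95 CPM (SD, n = 3 each), 1.26-fold, a log2 fold change of 0.33 ± 0.07 (edgeR adjusted p = 0.019), on 909 to 1259 counts. The call was lost without LN-521 replicate 3 (adjusted p = 0.138) or without LN-521+LN-221 replicate 2 (0.177) or 3 (0.135).

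EPHB4, the ephrin-B2 receptor of venous endothelium, was the most abundant Eph receptor at 38.7 TPM. It measured 148.6, 166.1 and 150.4 CPM on LN-521 and 151.8, 147.9 and 151.4 CPM on LN-521+LN-221, and the groups overlapped. Its log2 fold change was -0.04 ± 0.06 (edgeR adjusted p = 0.786) and turned to 0.02 on the TPM scale. EPHB6, which lacks kinase activity, EPHB1 and EPHB3 gave log2 fold changes of -0.01 ± 0.11, 0.08 ± 0.13 and 0.01 ± 0.19. The EphA receptors together gave 52.8 to 58.9 TPM per well over both coatings and the EphB receptors 52.8 to 58.8 TPM, against 36.8 to 42.0 TPM for the A ephrins and 12.2 to 14.7 TPM for the B ephrins.

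**Figure D2:**
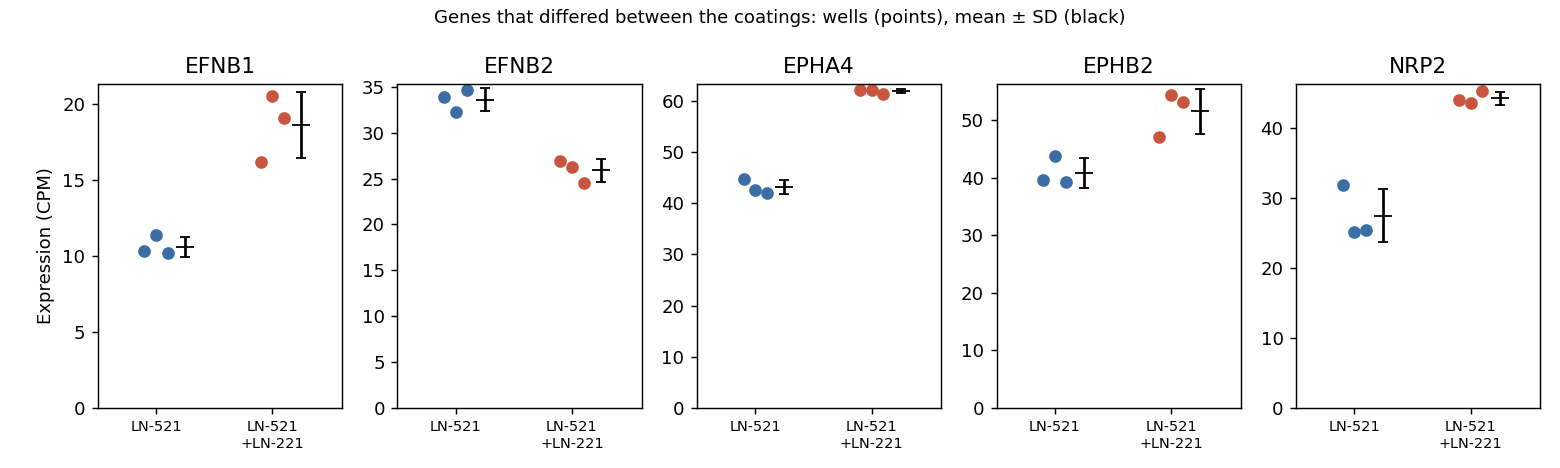
Expression in CPM (y axis, from 0) of the 5 genes that passed, with each well as a point (LN-521 blue, LN-521+LN-221 red) and the mean ± SD of 3 wells in black. In each panel the wells of the coatings are separate, for example EPHA4 at 42.1 to 44.7 against 61.5 to 62.2 CPM, and EFNB2 is the 1 gene that is lower on LN-521+LN-221.

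The neuropilins are co-receptors that lack an enzymatic domain and bind class 3 semaphorins and vascular endothelial growth factors. NRP2 rose, and NRP1 did not pass the test. NRP2 (ENSG00000118257, chr2:205681990-205798133, + strand), the partner of SEMA3F and a receptor for VEGF-C in lymphatic endothelium, measured 31.8, 25.1 and 25.4 CPM on LN-521 and 43.9, 43.5 and 45.2 CPM on LN-521+LN-221. Replicate 1 was the highest LN-521 well and still lay below every LN-521+LN-221 well. The mean went from 27.4 ± 3.78 to 44.2 ± 0.906 CPM (SD, n = 3 each), 1.61-fold, a log2 fold change of 0.69 ± 0.09 (edgeR adjusted p = 0.000133), on 633 to 1070 counts. NRP1, the co-receptor of SEMA3A, measured 25.5, 23.9 and 17.9 CPM and then 26.7, 26.3 and 24.2 CPM, with overlap, a log2 fold change of 0.20 ± 0.11 (edgeR adjusted p = 0.433). In TPM, NRP2 was 0.915, 0.644 and 1.08 times NRP1 in the LN-521 wells and 1.23, 1.29 and 1.1 times NRP1 in the LN-521+LN-221 wells. The order of the 2 levels differed among the LN-521 wells, while NRP2 was the higher in every LN-521+LN-221 well. Whether the fold changes of the 2 neuropilins differ was not tested.

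None of the 20 semaphorins passed in edgeR's test (4 had an unadjusted p under 0.05, and 1 passed in DESeq2, which called 6 of the 63 genes and 2.99% of all genes). They were the most abundant family, at 211.2 to 255.6 summed TPM per well. SEMA6A, a transmembrane semaphorin that binds PLXNA2 and PLXNA4, was the most abundant of all 63 genes at 83.2 TPM. It measured 298.4, 291.9 and 295.1 CPM on LN-521 and 314.3, 305.8 and 317.9 CPM on LN-521+LN-221. The LN-521+LN-221 wells were all higher, but the log2 fold change of 0.08 ± 0.05 did not pass (edgeR adjusted p = 0.476), and in TPM the wells overlapped.

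SEMA4C, the PLXNB2 ligand and second in the family at 35.1 TPM, was the gene called by DESeq2 (adjusted p = 0.0256). Its LN-521 wells measured 108.9, 143.9 and 109.0 CPM, and its LN-521+LN-221 wells 140.0, 151.0 and 158.0 CPM. Replicate 2 of LN-521 lay with the other coating, and the log2 fold change of 0.31 ± 0.10 did not pass in edgeR (adjusted p = 0.189). Without that well it was 0.46 (adjusted p = 3.13e-05). In TPM its wells did not overlap, at 29.6, 32.8 and 28.3 TPM and then 39.3, 40 and 40.6 TPM. SEMA4C passed in 5 of the 9 other fits on counts of all libraries, DESeq2 included. SEMA6D, at 7.19, 6.84 and 6.18 CPM and then 8.52, 8.25 and 8.87 CPM, did not overlap and did not pass (0.34 ± 0.12, adjusted p = 0.155).

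The 7 class 3 semaphorins are the secreted ones, and 5 of their log2 fold changes were below 0. SEMA3C had the largest of the family, -0.52 ± 0.19 (edgeR adjusted p = 0.183), at 3.18, 2.78 and 3.57 CPM on LN-521 and 1.97, 2.2 and 2.45 CPM on LN-521+LN-221. Its coatings did not overlap in CPM, but it rested on 41 to 89 counts. SEMA3A, the growth cone collapsing cue, was the most abundant of the class after SEMA3F (13.7 and 17.3 TPM) and measured 66.6, 51.6 and 58.2 CPM and then 51.9, 48.3 and 48.7 CPM. The LN-521 wells were spread, and its log2 fold change of -0.25 ± 0.08 did not pass (edgeR adjusted p = 0.147). Without LN-521 replicate 2 it was -0.33 (adjusted p = 0.00702), and SEMA3A passed in 4 of the 9 other fits on counts of all libraries, though not in DESeq2 (adjusted p = 0.138). SEMA3F, the NRP2 ligand, differed by -0.03 ± 0.07 on the log2 scale, and SEMA3D by -0.26 ± 0.13 (adjusted p = 0.365). The remaining class 3 members SEMA3B, SEMA3E and SEMA3G gave -0.09 ± 0.11, 0.22 ± 0.32 and 0.08 ± 0.20.

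The remaining semaphorins are membrane-bound. SEMA6B at 22.3 TPM and SEMA4D, the PLXNB1 ligand, at 14.5 TPM gave log2 fold changes of 0.02 ± 0.06 and -0.07 ± 0.06. SEMA4B gave -0.20 ± 0.10 (edgeR adjusted p = 0.375), and -0.30 without LN-521 replicate 1 (adjusted p = 0.033). The others, SEMA4A, SEMA4F, SEMA4G, SEMA5A, SEMA5B, SEMA6C and SEMA7A, lay between -0.16 and 0.16 in the edgeR fit. In the limma fits on TPM, SEMA5B gave 0.28 to 0.30 against 0.13, and SEMA4G gave 0.21 to 0.28 against -0.07.

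None of the 9 plexins passed either (2 had an unadjusted p under 0.05, both lower, and DESeq2 called 0). PLXNB1, the SEMA4D receptor, was the most abundant at 28.7 TPM, with 94, 119.7 and 96.9 CPM on LN-521 and 97.4, 96 and 112.1 CPM on LN-521+LN-221. Its wells overlapped, and the log2 fold change was -0.02 ± 0.09 (edgeR adjusted p = 0.936), or 0.04 on the TPM scale. PLXNA4, a receptor for SEMA3A with NRP1 and for SEMA6A, had the lowest log2 fold change of all 63 genes, -0.57 ± 0.17, and did not pass (edgeR adjusted p = 0.0851). It measured 3.57, 3.99 and 4.37 CPM on LN-521 and 2.6, 2.6 and 2.83 CPM on LN-521+LN-221. The groups did not overlap, on 54 to 109 counts, and the gene passed without LN-521 replicate 1 (-0.64, adjusted p = 0.0352). In TPM the PLXNA4 wells overlapped, with means of 0.28 TPM on LN-521 and 0.203 TPM on LN-521+LN-221. The difference on the log2(TPM + 1) scale was -0.09, but at such low levels the added 1 shrinks any difference. PLXNC1, the SEMA7A receptor, gave -0.27 ± 0.12 (adjusted p = 0.322). The remaining log2 fold changes ran from -0.14 for PLXNB3 to 0.17 for PLXNA3. PLXNA3 stood higher in TPM, where its wells did not overlap (4.36, 6.24 and 3.57 TPM and then 7.81, 6.48 and 8.72 TPM) and its limma log2 fold changes were 0.62 to 0.72, with adjusted p-values of at least 0.372. PLXNB2 and PLXNA1, at 14.4 and 11.9 TPM, gave -0.02 ± 0.08 and 0.05 ± 0.06.

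The Slits are large secreted ligands, and all 3 were low, at summed levels of 1.41 to 2.29 TPM per well. SLIT2 was highest at 0.865 TPM and measured 5.27, 4.62 and 5.62 CPM on LN-521 and 3.9, 4.22 and 4.69 CPM on LN-521+LN-221. The wells overlapped and the log2 fold change of -0.27 ± 0.15 did not pass (edgeR adjusted p = 0.419). SLIT3, at -0.27 ± 0.25 (adjusted p = 0.682), read 1.35, 1.32 and 1.69 CPM and then 1.25, 1.03 and 1.31 CPM on 23 to 42 counts, with the nearest wells almost touching. SLIT1 gave 0.01 ± 0.14. Their receptors were more abundant, with ROBO1 second of the 63 genes at 48.5 TPM. ROBO1 measured 218.3, 209.7 and 218.0 CPM on LN-521 and 224.4, 219.7 and 208.1 CPM on LN-521+LN-221, with full overlap. Its log2 fold change was 0.01 ± 0.05 (edgeR adjusted p = 0.938), on 4659 to 5579 counts. ROBO2 gave -0.09 ± 0.09 (adjusted p = 0.739) at 14.8, 14.2 and 15.4 CPM and then 12.9, 14.6 and 14.3 CPM. ROBO3, known for letting commissural axons cross the midline, gave 0.04 ± 0.12 at 10.8 TPM. No Slit or Robo gene had an unadjusted p under 0.05.

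The 5 netrins were the other low family, at 2.39 to 4.80 summed TPM per well, and 0 had an unadjusted p under 0.05. NTNG1, a membrane-anchored netrin-G, was highest at 1.19 TPM. Its wells read 2.79, 2.63 and 3.01 CPM on LN-521 and 2.94, 1.93 and 2.66 CPM on LN-521+LN-221, and the log2 fold change was -0.16 ± 0.19 (edgeR adjusted p = 0.77). NTN4, a basement membrane netrin that binds laminin gamma chains, had the largest log2 fold change, -0.42 ± 0.22 (adjusted p = 0.409). It measured 2.22, 2.41 and 2.25 CPM and then 1.64, 1.35 and 2.15 CPM, without overlap, on 30 to 64 counts. In TPM the NTN4 wells overlapped, with means of 0.863 TPM on LN-521 and 0.663 TPM on LN-521+LN-221. The difference on the log2(TPM + 1) scale was -0.16, a scale on which the added 1 shrinks differences at such low levels. NTN1, the secreted cue of the floor plate, gave 0.31 ± 0.15 (adjusted p = 0.354) at 4.36, 5.41 and 4.7 CPM and then 6.45, 5.02 and 6.46 CPM. NTN3 and NTNG2 gave 0.25 ± 0.38 and -0.01 ± 0.26.

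**Figure D3:**
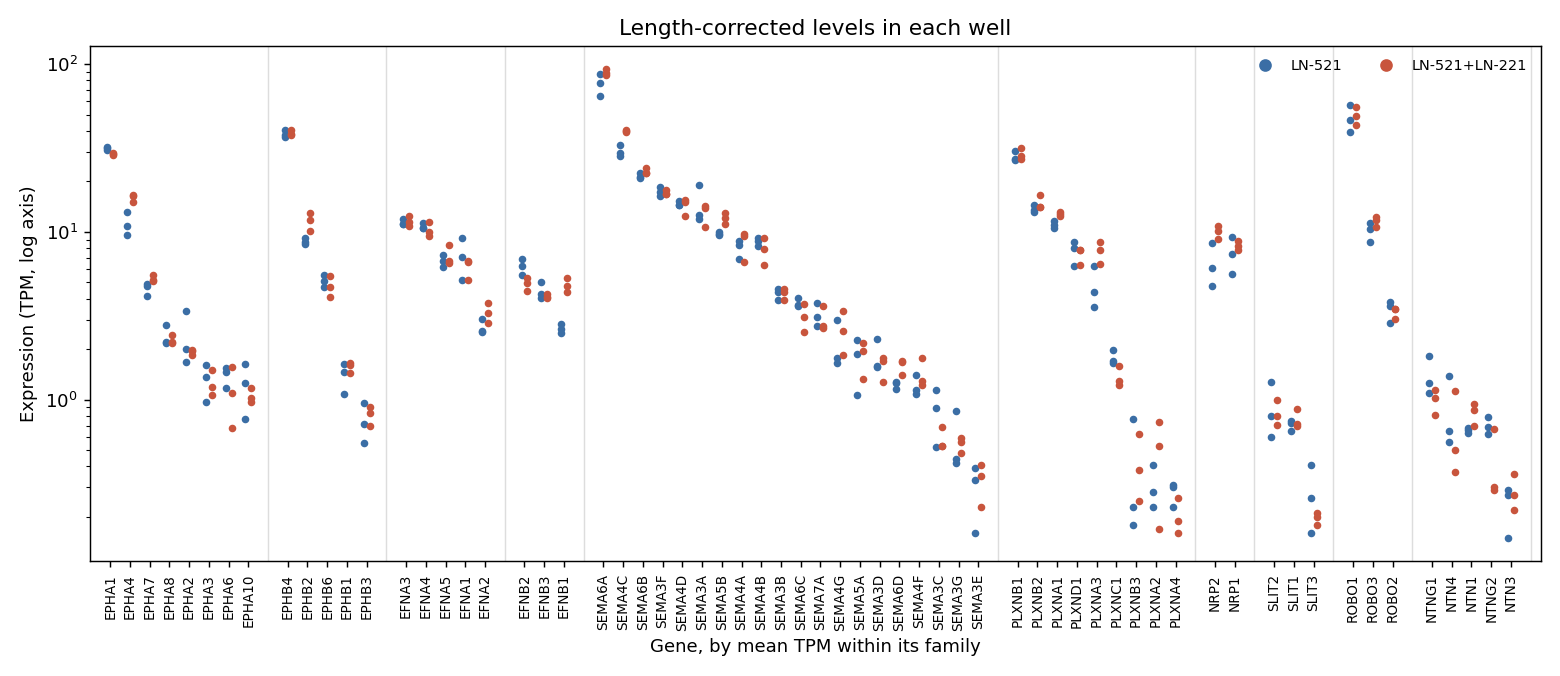
Level of each gene in each well in TPM (y axis, logarithmic), by family and by mean level within the family, with LN-521 wells in blue and LN-521+LN-221 wells in red. SEMA6A (83.2 TPM on average), ROBO1 (48.5) and EPHB4 (38.7) stand highest, and every Slit and most netrins lie near or below 1 TPM.

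In mean level over the 6 wells, 18 of the 63 genes stood at 10 TPM or more and 14 stood below 1 TPM. The order at the top was SEMA6A (83.2 TPM), ROBO1 (48.5), EPHB4 (38.7), SEMA4C (35.1), EPHA1 (30.3), PLXNB1 (28.7) and SEMA6B (22.3). The wells of SEMA6A lay above those of ROBO1 without overlap, whereas those of SEMA4C and EPHB4 overlapped. The place of SEMA4C differed by coating: its mean of 30.2 TPM on LN-521 was below EPHA1 (31.4) and EPHB4 (38.5), and its mean of 40 TPM on LN-521+LN-221 was above EPHA1 (29.1) and EPHB4 (39). The lowest levels were SLIT3 (0.237 TPM), PLXNA4 (0.242) and NTN3 (0.26), whose wells overlapped. The levels of the 5 genes that passed were lower than these 7: EPHA4 at 13.6, EPHB2 at 10.2, NRP2 at 8.25, EFNB2 at 5.56 and EFNB1 at 3.73 TPM. All 63 genes together gave 511.6 to 594.4 TPM per well.

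The receptors of netrins and the genes that carry these signals into the cell were taken from a list of 74 partner genes, of which 72 were tested. Of these, 7 passed (9.72%, against 2.53% of all genes), 5 higher and 2 lower, with a median log2 fold change of -0.02. By role, 1 of 9 tested netrin receptors and repulsive guidance genes passed, 1 of 11 Slit and Robo partners, 1 of 16 Eph and ephrin partners, 4 of 23 semaphorin and plexin partners and 0 of 13 cytoskeletal effectors. Of the 13 cytoskeletal effectors, PAK2 and PAK3 had an unadjusted p under 0.05 in edgeR (0.0132 and 0.0237), as did 14.5% of all genes. DSCAM, a netrin receptor, was left untested at its low counts, and so was TIMD4.

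DCC, the attractive netrin receptor, fell. It measured 1.7, 1.99 and 1.44 CPM on LN-521 and 0.915, 0.762 and 0.591 CPM on LN-521+LN-221, without overlap. The log2 fold change was -1.18 ± 0.28 (edgeR adjusted p = 0.0277), on 14 to 53 counts. The call held in 2 of 6 fits that left out a well, and DESeq2 gave an adjusted p of 0.0568. In TPM the coatings overlapped, at 0.49, 0.18 and 0.25 and then 0.38, 0.35 and 0.14 TPM. The means were 0.307 and 0.29 TPM. The difference on the log2(TPM + 1) scale was -0.02, where the added 1 shrinks differences at such low levels. The other netrin receptors did not pass. Neogenin (NEO1), at 12.1 TPM, gave 0.05 ± 0.06 (edgeR adjusted p = 0.794). UNC5D, the most abundant of the repulsive UNC5 receptors at 17.5 TPM, gave -0.07 ± 0.06 (0.667), UNC5B -0.08 ± 0.07 (0.663), UNC5A -0.04 ± 0.09 (0.883) and UNC5C -0.44 ± 0.34 (0.613).

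The partner with the highest log2 fold change among those that passed was MICAL2, an actin-oxidising enzyme of the MICAL family, whose members act downstream of plexins. MICAL2 measured 3.22, 2.59 and 3.29 CPM on LN-521 and 6.89, 6.64 and 8.78 CPM on LN-521+LN-221. The groups did not overlap, and the log2 fold change was 1.30 ± 0.16 (edgeR adjusted p = 0.0001), 2.46-fold, on 69 to 208 counts. It passed in all 6 fits that left out a well, though its TPM values overlapped between coatings. MICAL1, of the same family, measured 84.7, 97.5 and 84.9 CPM and then 110.9, 109.4 and 124.5 CPM, a log2 fold change of 0.37 ± 0.07 (adjusted p = 0.00552). It kept its call in 4 of the 6 fits, and lost it without LN-521 replicate 3 (adjusted p = 0.0682) or LN-521+LN-221 replicate 3 (0.0692). MICAL1 shares exonic sequence on its strand with ZBTB24 (1477 to 1672 counts, log2 fold change 0.24, adjusted p = 0.0593), so reads of the 2 genes could have been divided between them.

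DPYSL3, a collapsin response mediator that links semaphorin signals to microtubules, rose from 1236.4, 1278.4 and 1264.7 CPM to 1402.3, 1448.0 and 1456.5 CPM (0.19 ± 0.05, edgeR adjusted p = 0.0383). MET, the hepatocyte growth factor receptor, which can associate with B plexins, fell from 33, 32.2 and 34.2 CPM to 26.7, 29.2 and 24.3 CPM (-0.31 ± 0.08, adjusted p = 0.0478). Both were without overlap in CPM between coatings (MET overlapped in TPM), and each held its call in 2 of 6 fits that left out a well. DPYSL3 also lost it with library size alone (adjusted p = 0.0511) and with no filter beyond 1 count (0.0504). TIAM1, a Rac exchange factor that binds ephrins and Eph receptors, rose from 63.3, 68 and 64.5 CPM to 78, 80.1 and 86.1 CPM (0.32 ± 0.06, adjusted p = 0.00767). SRGAP3, which binds Robo receptors, rose from 24.9, 26.4 and 25.6 CPM to 32.6, 31.3 and 32.2 CPM (0.32 ± 0.07, adjusted p = 0.0213). TIAM1 kept its call in 3 and SRGAP3 in 2 of the 6 fits. THUMPD3, on the opposite strand over SRGAP3, had 1200 to 1517 counts and a log2 fold change of 0.03.

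For the 5 axon guidance genes that passed, EFNB1, EPHA4 and NRP2 kept the call in all 6 fits that left out a well, with adjusted p-values of at most 0.00348, 0.00205 and 0.00305. All 5 also passed in the 9 other fits on counts. No member passed in the 4 limma fits on TPM. The fit without a filter tested all 63, and the other fits tested only the 49 that met the TPM filter. Few genes passed in all: 0.229% on log2(TPM + 1), 0.111% on log2(TPM + 0.1), 0.00276% without a filter and 0.305% with a mean-variance trend. For the 5 called genes, the lowest adjusted p-values there were 0.055 for EFNB1, 0.29 for EPHA4, 0.388 for NRP2, 0.399 for EPHB2 and 0.538 for EFNB2. Their directions were the same in every fit, and the TPM of the coatings did not overlap for any of the 5. Of the members that were not called, EPHA1, EPHA7, NTN1, PLXNA1, PLXNA3, PLXNC1, SEMA4C, SEMA5B and SEMA6D did not overlap in TPM either. The share of all genes without overlap in TPM was not computed, so these separations are not read as a result about the members. The TPM also come from the same libraries as the counts and are no independent support.

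**Figure D4:**
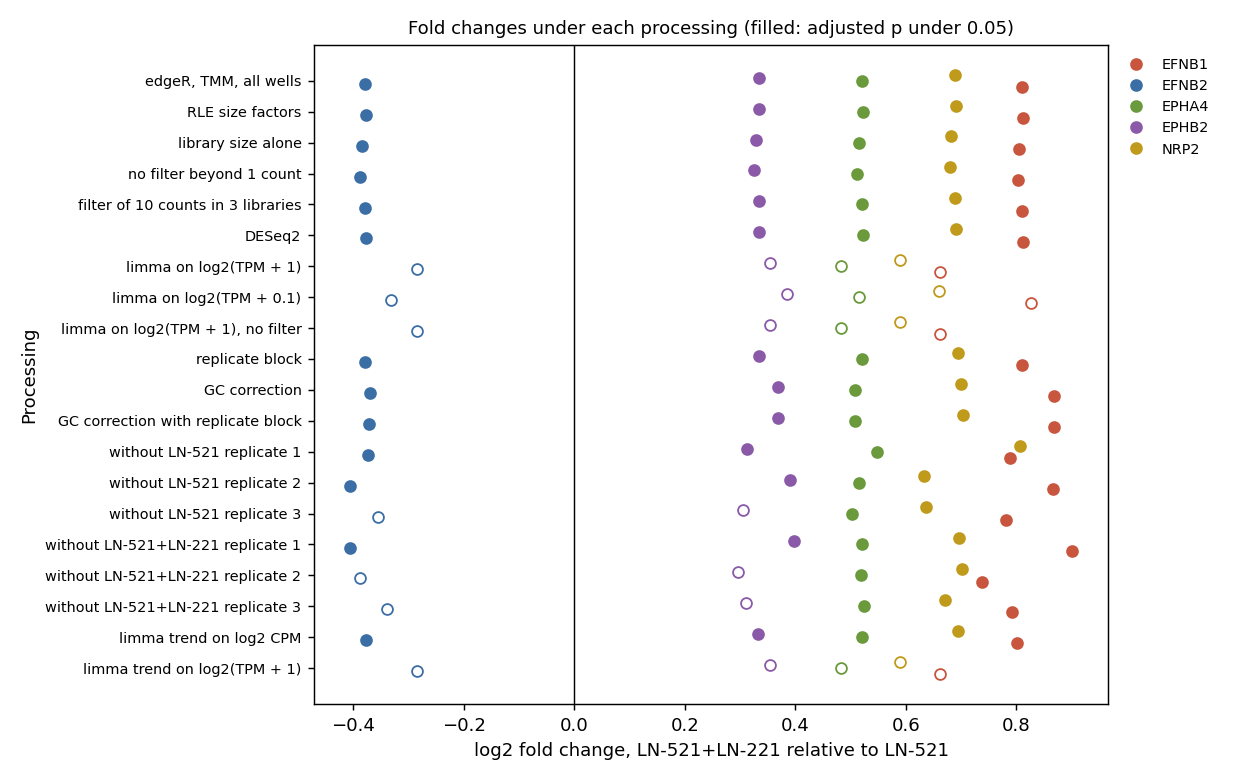
Log2 fold change (x axis) of the 5 genes under each processing (y axis, 1 row each), filled where the adjusted p is under 0.05 and open where it is not. The points of each gene stay on 1 side of 0, from -0.41 to -0.29 for EFNB2 and from 0.66 to 0.90 for EFNB1, and the open points are those of the limma fits on TPM and of 3 fits without a well for EFNB2 and EPHB2.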

How the data were processed

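Total RNA from 6 wells of H1 cells was sequenced (stranded kit, 150 bp read pairs, per the labels' protocols). The authors deposited a table of estimated counts per gene and a table of TPM, a unit that divides by transcript length and sums alike in every library. The submitters' processing notes name cutadapt, STAR 2.5.2b, RSEM 1.2.31 and hg38. The gene annotation and the use of strand are not given in the sources used here. Between 6.08% and 6.67% of the deposited counts per library were not whole. The sample sheet lists 1 sequencing batch, so no batch split could be made.

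Symbols came from a table that held 93.1% of the 60499 Ensembl gene IDs. Gene types, positions, transcript GC content and overlaps came from GENCODE release 29 (GRCh38), which held 93.8%, and start-site windows from RefSeq (GRCh38.p14), matched by symbol for 54 of the 63 genes. The members, the partner and marker lists and the rule for named genes were chosen with earlier results of these data known. The rule gives full statistics to called genes, to the most abundant gene and the largest log2 fold change of each family, to called partners and to the netrin receptors. Any other gene was named after its values were seen.

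Counts were rounded, filtered with filterByExpr (minimum count 10), scaled by TMM and tested with edgeR 4.0.16 (R 4.3.3; quasi-likelihood, robust, no replicate block), with Benjamini-Hochberg adjustment over 17608 genes and a threshold of 0.05. The standard error is the absolute log2 fold change divided by the square root of F. CPM are rounded counts over TMM-scaled library sizes. An adjusted p with no other tool beside it is edgeR's. The alternatives were RLE size factors, library size alone, 2 other filters, DESeq2 1.42.0, limma 3.58.1 on log2(TPM + 1), filtered to 1 TPM in 3 libraries or unfiltered, the same with a pseudocount of 0.1 and the filter, a replicate block, a GC correction (lowess span 0.3) with and without the block, and leaving out each library. The limma trend fits on log2 CPM and log2(TPM + 1) were added after seeing the data. The scripts were tested on simulated data.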

Additional observations from a re-analysis of the deposited data

How the results depend on the processing

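Leaving out 1 library in turn gave 194 to 1179 called genes in all, against 446. It gave 3 to 8 called axon guidance genes, against 5, 1 to 10 called partners, against 7, and a median log2 fold change of the axon guidance genes of -0.065 to 0.011, against -0.025. The highest counts of all genes and of axon guidance genes came without LN-521 replicate 1 (1179 and 8). Without LN-521 replicate 3, or LN-521+LN-221 replicate 2 or 3, 3 axon guidance genes were called, all higher. The partners fell to 1 without LN-521 replicate 3 or LN-521+LN-221 replicate 3, to 2 without LN-521+LN-221 replicate 2 and to 4 without LN-521+LN-221 replicate 1. All genes numbered 201 without LN-521 replicate 3, and 290, 198 and 194 without LN-521+LN-221 replicates 1, 2 and 3.

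The deviations of same-numbered wells correlated at 0.047, -0.022 and 0.009, so the numbers were not taken to pair the wells. The replicate block called 646 genes, 7 axon guidance genes (SEMA3A and SEMA4C besides the 5) and 8 partners. Its median was -0.020 (0.001 over all genes). With no filter beyond 1 count, 718 genes of 36261 were called. The GC correction called 910 genes and 13 partners, and the median of the axon guidance genes was 0.036 (0.002 over all genes). The GC correction with the replicate block called 977 genes, 8 axon guidance genes and 13 partners, with a median of 0.036 (0.002 over all genes).

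In the limma fits on TPM, log2(TPM + 1) called 33 genes (27 higher), log2(TPM + 0.1) 16 (10 higher), the first without a filter 1, and the trend fit 44 (33 higher), against 246 of 446 higher in counts. All 4 called 0 axon guidance genes, with 10 of 49, 11 of 49, 14 of 63 and 9 of 49 at an unadjusted p under 0.05. They called 0 partners, with 8 of 70, 8 of 70, 7 of 73 and 8 of 70. Over all genes, 1160 of 14428, 1178 of 14428, 2362 of 36252 and 1128 of 14428 had an unadjusted p under 0.05. The median log2 fold changes of the axon guidance genes in these fits were 0.023, 0.025, 0.023 and 0.023, against 0.035, 0.039, 0.014 and 0.035 over all genes. The cause was not tested.

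Among the genes given full statistics, those whose log2 fold change changed sign were EFNA3, EPHB4, PLXNB1, ROBO1 and UNC5A, and none of these had been called. EFNA3 became 0.02 in the 4 TPM fits. EPHB4 became 0.02 in those fits and 0.01 with either GC correction, and ran from -0.07 to 0.01 with a library left out. PLXNB1 became 0.04 in the TPM and GC fits and ran from -0.10 to 0.10. ROBO1 ran from -0.0074 to 0.04 with a library left out, and UNC5A became 0.02 with either GC correction. Over the named genes, the alternatives on all libraries kept direction and side of the threshold in 315 values, and lost the call in 48, gained it in 1 and changed sign in 18. With a library left out these numbers were 151, 27, 2 and 6. Among the 31 named genes, only the 5 called axon guidance genes and the 7 called partners had a call to lose. Most of the values that kept their side of the threshold were therefore those of uncalled genes. DCC (14 to 53 counts per library), SLIT3 (23 to 42) and NTN3 (10 to 20) rest on few counts, which limits the precision of their values.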

Other observations

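Several of the 63 genes lie near each other, and their values are given here with no test of the arrangement. SEMA3C, SEMA3E, SEMA3A and SEMA3D lie within chromosome 7 between positions 80742538 and 85186855 (GRCh38). Their log2 fold changes were -0.52, 0.22, -0.25 and -0.26, and none passed the test. EPHA8 and EPHB2 lie near each other on chromosome 1, at 22563564 to 22603594 and 22710839 to 22921500. EPHB2 rose (log2 fold change 0.33) while EPHA8 stood at -0.08 ± 0.12 (edgeR adjusted p = 0.834). EFNA4, EFNA3 and EFNA1 lie on chromosome 1 between 155063731 and 155134857, at -0.11, -0.06 and -0.18. ROBO2 and ROBO1 lie on chromosome 3, at -0.09 and 0.01, with mean levels of 3.38 and 48.5 TPM.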
